A study of Mus musculus with 18 samples.

Results

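The 7 Krüppel-like factor genes Klf2, Klf3, Klf4, Klf6, Klf7, Klf10 and Klf13 were followed in mouse eosinophils exposed to apoptotic cells (ACs). They were taken by gene symbol from the 54446 genes of the deposited table, and all 7 were counted in each of the 18 libraries, with between 27 and 7852 reads per gene and library. The eosinophils came from the peritoneal cavity of NJ.1638 Il5Tg mice, labelled C57BL/6, in which an Il5 transgene driven by a T cell promoter raises eosinophil numbers in blood and tissues. All groups shared this transgene, the co-culture with ACs and the purification on Siglec-F afterwards. The ACs were thymocytes of wild-type mice treated with dexamethasone. Every stimulus came on top of ACs. In the Type 1 experiment the stimulus was E. coli, IFN-γ, both of these or none. For both, the paper describes IFN-γ followed by E. coli. In the IL-4 experiment the stimulus was IL-4 or none. Each of the 6 groups had 3 libraries. The groups are named by their stimulus, and those with none are called ACs. Age and sex of the Il5Tg mice are not given in the sources used here. Which mouse gave which library is not given either, so the p-values measure the spread between these libraries.

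KLFs are transcription factors with a run of C2H2 zinc fingers at the carboxy terminus, which binds CACCC boxes and GC-rich elements. They share this domain with the SP factors, so family members can compete for the same sites, and they differ in the rest of the protein, through which they activate or repress. Klf2 and Klf4 are induced through the MEK5-ERK5-MEF2 pathway. In endothelial and myeloid cells Klf2 restrains inflammatory activation, and Klf4 supports the alternative activation of macrophages downstream of IL-4. Klf10 is an early response gene of TGF-β. Klf6 and Klf7 are activators, Klf3 is a repressor that recruits CtBP, and Klf13 is known in T cells for driving Ccl5.

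The genes lie on different chromosomes of GRCm38, so none of the 7 overlaps another. Klf2 spans chr8:72319033-72321656 on the plus strand, Klf3 chr5:64803388-64832901 on the plus strand and Klf6 chr13:5861482-5870394 on the plus strand. On the minus strand, Klf4 spans chr4:55527143-55532466, Klf7 chr1:64029447-64122282, Klf10 chr15:38291463-38300706 and Klf13 chr7:63886351-63938915. Reads of Klf3 are uncertain where the annotated transcript C230096K16Rik overlaps it on the same strand, which had a mean normalized count of 77.7 over all libraries. The RefSeq promoter table for GRCm38.p6 held a window, 250 bases before the start to 50 after it, for 6 of the 7, all but Klf10. Klf2 and Klf4 are shown here, the members with a window that were lower with E. coli, as the 250 bases before the start on the gene's strand. Capitals mark KLF boxes (CACCC, or GGGTG for the other strand), GC boxes (GGGCGG, or CCGCCC) and a match to the MEF2 consensus.
Klf2, chr8:72318812-72319061: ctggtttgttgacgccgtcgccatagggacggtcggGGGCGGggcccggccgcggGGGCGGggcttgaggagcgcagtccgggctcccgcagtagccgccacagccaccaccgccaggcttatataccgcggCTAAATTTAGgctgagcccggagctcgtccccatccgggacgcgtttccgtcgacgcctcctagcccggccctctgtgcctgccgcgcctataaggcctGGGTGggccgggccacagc
Klf4, chr4:55532476-55532725: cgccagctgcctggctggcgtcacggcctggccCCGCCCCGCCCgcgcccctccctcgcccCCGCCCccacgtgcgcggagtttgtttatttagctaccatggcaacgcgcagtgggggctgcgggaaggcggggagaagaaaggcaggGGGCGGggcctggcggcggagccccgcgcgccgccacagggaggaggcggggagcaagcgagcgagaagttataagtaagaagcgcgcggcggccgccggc

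The last 29 bases shown for Klf2 lie inside the gene as GENCODE annotates it. A KLF box stood in the windows of 4 of the 6 members (Klf2, Klf3, Klf7 and Klf13), against 57.5% of all 32851 windows of 300 bases. Klf3, a gene on which other KLFs are known to act, held 5 of them, and 3.1% of all windows held 4 or more. A GC box stood in all 6, against 35.7% of all windows, and the windows of the members were 58.3% to 76.7% G or C against a median of 52.7%. The match to the MEF2 consensus in Klf2 (CTAAATTTAG, bases 133 to 142 of the window) was the only match among the members to a motif that 0.557% of all windows hold. No member window held a GAS element (TTCNNNGAA, 8.3% of all windows), a STAT6 element (TTC and GAA parted by 4 bases, 6.95%), an AP-1 site (TGANTCA, 7.81%), an ISRE-like element (GAAA repeated after 2 bases, 3.44%), the NF-κB consensus (4.51%) or a CArG box (1.63%), read on both strands. These are matches of letters in short windows, and binding was not measured.

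Between 779421 and 7782072 reads were counted per library, with a median of 4461121. Replicate 3 of both groups of the IL-4 experiment was the shallowest, so that 3 reads, the limit that a count of 0 allows, stand for normalized counts of 15.4 and 16.1 there. Of the eosinophil markers Siglecf was at 1514 to 3367, Ccr3 at 2623 to 4934 and Epx, a granule protein made early in eosinophil development, at 0 to 25.7. Thymocyte markers summed to 55.6 to 274 over 14 genes. In the Type 1 experiment they summed to 139.9 to 185.9 with ACs and, above these, to 201.9 to 274.4 with E. coli. With IFN-γ the sum was 86.2 to 143.3 and with both stimuli 88.3 to 149.0. Rag1, Rag2 and Dntt were at 0 in 13 libraries each, while Cd3d (4.28 to 42.04) and Tcf7 (3.16 to 62.45) were at 0 in none. The 12 macrophage markers were all expressed and differed between the groups. Their sum was 14784 to 18558 with ACs in the Type 1 experiment, 7618 to 9076 with E. coli, 21912 to 30424 with IFN-γ and 9283 to 9400 with IFN-γ + E. coli. In the IL-4 experiment it was 20678 to 30297 with ACs and 17135 to 27380 with IL-4. The sum is unweighted, so the highest genes rule it. These were C1qc with ACs of the Type 1 experiment (mean 8319) and Adgre1 with IFN-γ + E. coli (mean 2987). Adgre1 is also expressed by eosinophils, and Cd163, which was at 0 in 2 libraries, was the only macrophage marker at 0 in any. Fewer cells of a type and less RNA per cell cannot be told apart in bulk samples.

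At most 3 of the 7 members passed the threshold with any stimulus, and every member that did was lower than with ACs. A member passed at a Benjamini-Hochberg adjusted p under 0.05 in limma and a change of at least 1.5-fold. With E. coli, 3 of the 7 fell (Klf2, Klf4 and Klf10), where 10.3% of all genes tested passed, 5.05% higher and 5.25% lower. With IFN-γ, 2 of the 7 fell (Klf2 and Klf10), where 21.4% of all genes passed, 11.4% higher and 9.96% lower. With both stimuli only Klf2 fell, where 31.9% of all genes passed, 14.7% higher and 17.2% lower. With IL-4 limma called 0 of the 7, where 1.09% of all genes passed, 0.74% higher and 0.347% lower. At an unadjusted p under 0.05 it would count 2 (Klf2 and Klf4), a limit at which the share of all genes was not counted. On the recovered reads edgeR and DESeq2 each called 1 (Klf4), where they called 1.99% and 1.96% of all genes. The median log2 change over the members was -0.32 with E. coli, -0.31 with IFN-γ, -0.08 with both and -0.00 with IL-4, beside -0.00, -0.00, -0.05 and -0.01 over all genes tested. The stimuli of the Type 1 experiment share their 3 ACs libraries.

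**Figure D1:**
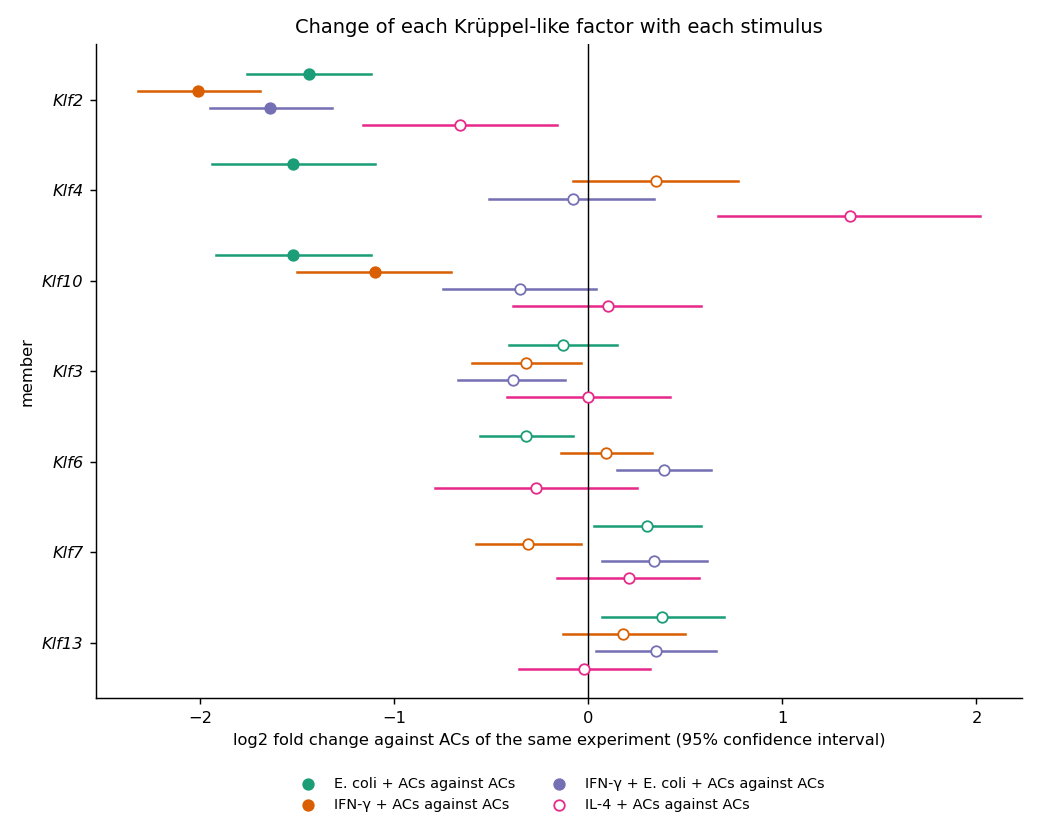
Log2 fold change of each member (rows) against the ACs libraries of the same experiment, with its 95% confidence interval from limma (3 libraries a group); filled points passed the threshold of adjusted p under 0.05 and 1.5-fold, open points did not. Klf2 lies at -1.44, -2.01 and -1.64 with the stimuli of the Type 1 experiment, and Klf4 lies at -1.52 with E. coli and at 1.35 with IL-4.

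Klf2, which in leukocytes is tied to quiescence, fell with all stimuli of the Type 1 experiment. Its normalized counts were 1228, 1359.9 and 1258 with ACs, 471, 441 and 504 with E. coli, 315, 268 and 378 with IFN-γ and 485, 329.8 and 436 with IFN-γ + E. coli. Every stimulated library lay below every ACs library, and the stimulated groups overlapped each other except E. coli and IFN-γ. Such a separation from ACs held for 38.3% of all genes with E. coli, 42.9% with IFN-γ and 48.8% with both. The fall was 2.71-fold with E. coli (log2 -1.44 ± 0.15 SE, adjusted p = 1.8e-06), 4.03-fold with IFN-γ (-2.01 ± 0.15, adjusted p = 6.5e-09) and 3.11-fold with both (-1.64 ± 0.15, adjusted p = 6.9e-08). The unweighted sum of the macrophage markers was lower with E. coli and with both and higher with IFN-γ. Single markers went both ways with IFN-γ, where Marco rose (2.17 ± 0.16) and Cd163 fell (-3.53 ± 0.79). The part of macrophage RNA in the Klf2 values was not tested. The summed eosinophil markers were 10616 to 12159 with IFN-γ and 17166 to 18558 with ACs, where Alox15, the highest of them, had means of 5456 and 9408. Siglecf, Il5ra, Ear6 and Alox15 fell with IFN-γ, as Klf2 did. Ccr3 (-0.14 ± 0.11), Gata1 (-0.27 ± 0.14), Prg2 (-0.20 ± 0.22) and Ear2 (-0.98 ± 0.60) did not pass. The part of these changes in the fall of Klf2 was not tested.

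In the IL-4 experiment Klf2 was at 4027, 6113 and 3115 with ACs and at 3242, 2536 and 2369.5 with IL-4. The groups overlapped, with the ACs libraries the more spread. The difference did not pass (log2 -0.66 ± 0.23, adjusted p = 0.37), and its 95% interval, -1.16 to -0.16, includes falls of more than 1.5-fold. Without the shallow replicate 3 of both groups it passed (log2 -0.79, adjusted p = 0.016), and over all 17 settings run the adjusted p ranged from 0.016 to 0.71. In the order of its group means Klf2 ran from ACs of the IL-4 experiment over IL-4 and ACs of the Type 1 experiment to E. coli, both stimuli and IFN-γ, and the highest mean was 13.8 times the lowest. The ranges of the first and second groups overlapped, as did those of the last 3 neighbours. The ACs groups came from different experiments, and their difference in Klf2 cannot be told apart from the experiment. The highest and lowest means also came from different experiments, so stimulus and experiment cannot be told apart in their ratio.

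**Figure D2:**
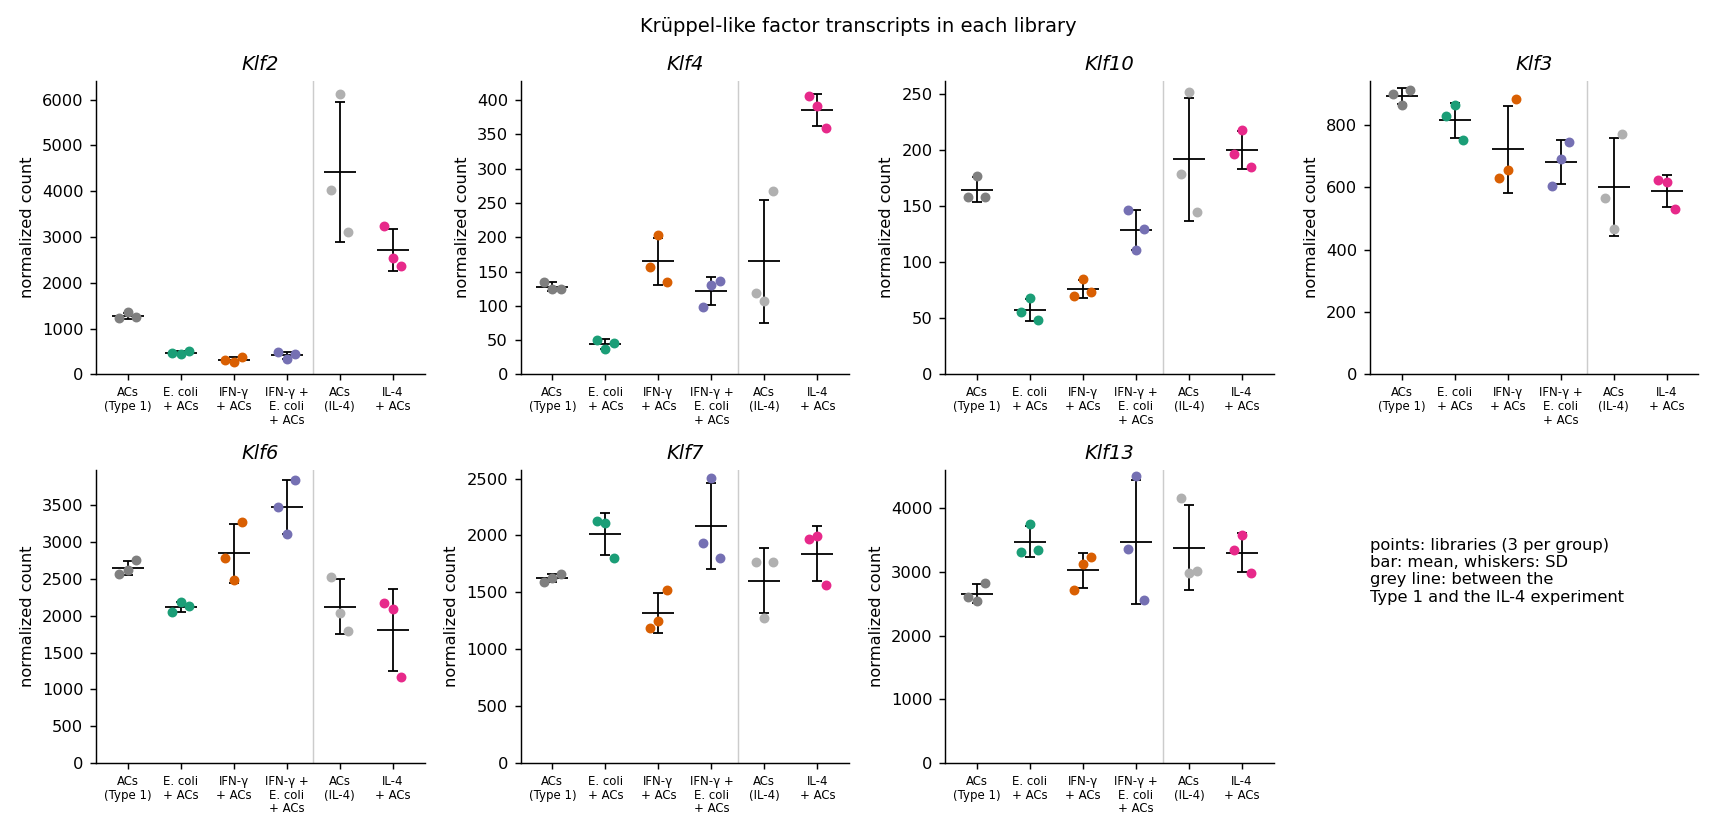
Normalized count of each member (one panel each, axes from 0) in the 18 libraries by group, with the mean and SD of 3 libraries; the grey line parts the Type 1 from the IL-4 experiment. Klf2 is at 1228 or above in all ACs libraries and at 504 or below with every stimulus of the Type 1 experiment.

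Klf4, a factor of alternative macrophage activation, fell with E. coli alone and had its highest values with IL-4. Its normalized counts were 135, 125 and 124 with ACs, 50.2, 36.8 and 45.7 with E. coli, 157, 203 and 135 with IFN-γ and 98.4, 131 and 137 with IFN-γ + E. coli. The E. coli libraries lay below all others of the experiment, the IFN-γ libraries lay just above those with ACs, and those with both stimuli overlapped ACs. The fall with E. coli was 2.87-fold (log2 -1.52 ± 0.20, adjusted p = 3.2e-05). With IFN-γ the difference was 0.35 ± 0.20 (adjusted p = 0.22) and with both stimuli -0.08 ± 0.20 (adjusted p = 0.77, 95% interval -0.51 to 0.34). With both stimuli Klf4 was 2.71-fold higher than with E. coli alone (1.44 ± 0.20, adjusted p = 3.7e-05).

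In the IL-4 experiment Klf4 was at 119, 107 and 268 with ACs and at 406, 391 and 359.8 with IL-4. All IL-4 libraries lay above all ACs libraries, as for 17.3% of all genes in either direction, and 1 ACs library stood closer to them than to the other 2. That library, replicate 3, counted 50 reads of Klf4, whose exact Poisson 95% interval is 199 to 353 in normalized counts and covers counting error only. The difference was 2.54-fold (log2 1.35 ± 0.30, 95% interval 0.67 to 2.02) and did not pass in limma (adjusted p = 0.093). It passed in edgeR (log2 1.48, adjusted p = 0.0047), in DESeq2 (1.37, 0.00011), without the filter on low values (adjusted p = 0.0002), with all 18 libraries fitted together (0.0036) and without ACs replicate 3 (1.76 ± 0.15, adjusted p = 0.0009). Over the 17 settings run its adjusted p ranged from 8.9e-06 to 0.33 and its direction was the same in all. Replicate 3 of the ACs group also had the highest sum of macrophage markers of that group, 30297. The paper names Klf4 among the genes raised by IL-4 with ACs, and it reports a rise of Klf4 with ACs alone. None of the 18 libraries was without ACs.

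The macrophage markers moved with Klf4 in part. Of the 12, 7 were lower and 0 higher with E. coli, and 4 were higher and 2 lower with IFN-γ, where 10.3% and 21.4% of all genes passed. With both stimuli 7 were lower and 3 higher, where 31.9% of all genes passed. The sum of the markers stayed at 9283 to 9400, below all ACs libraries, and Klf4 was within the range of ACs or close to it. In that sum Adgre1, which eosinophils also express, stood at 2717 to 3140. With IL-4, 2 were lower (Vsig4 and Marco), where 1.09% of all genes passed. The sums of the groups overlapped, and all Klf4 values were above those with ACs. The largest of these changes against ACs were falls of Cd163 (log2 -4.90 ± 0.79) and Vsig4 (-3.19 ± 0.24) with both stimuli, which also lowered C1qa against IFN-γ (-2.88 ± 0.24), and a rise of Marco with IFN-γ (2.17 ± 0.16). The part of macrophage RNA in the Klf4 values was not tested. In the order of its group means Klf4 ran from IL-4, apart from the rest, over IFN-γ, the ACs groups and both stimuli, each overlapping the next, to E. coli, which stood apart below. The highest group mean, with IL-4, was 8.71 times the lowest, with E. coli. These groups came from different experiments, so stimulus and experiment cannot be told apart in this order and ratio.

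**Figure D3:**
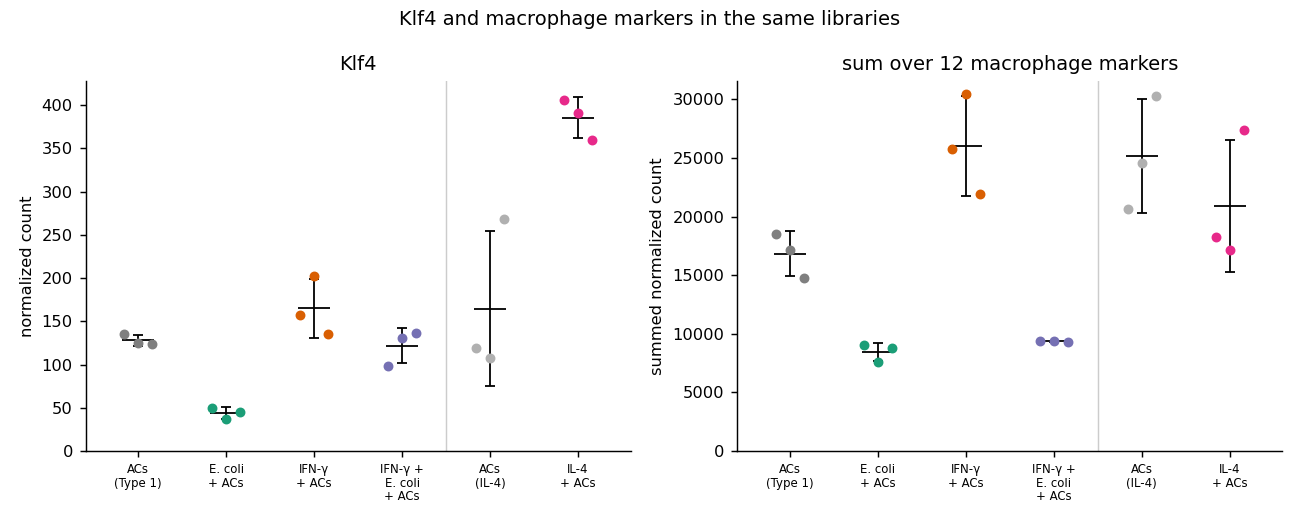
Normalized count of Klf4 (left) and the summed normalized count of 12 macrophage markers (right) in the 18 libraries, with the mean and SD of 3 libraries a group. With IFN-γ + E. coli the markers sum to 9283 to 9400, near the 7618 to 9076 with E. coli, while Klf4 is at 98.4 to 137 against 36.8 to 50.2. The sum is unweighted and includes Adgre1, which eosinophils also express, at 2717 to 3140 with IFN-γ + E. coli.

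Klf10, an early TGF-β response gene that feeds back on Smad signalling, fell with E. coli and with IFN-γ alone, and stood nearer to its ACs level when both were present. Its normalized counts were 159, 177 and 158 with ACs, 55.3, 67.9 and 48.4 with E. coli, 69.9, 84.8 and 73.9 with IFN-γ and 147, 111 and 129.7 with IFN-γ + E. coli. The 4 groups did not overlap each other at any point of this order. The fall was 2.87-fold with E. coli (log2 -1.52 ± 0.19, adjusted p = 1.5e-05) and 2.15-fold with IFN-γ (-1.10 ± 0.19, adjusted p = 0.0002). With both stimuli the difference from ACs was -0.35 ± 0.19 (adjusted p = 0.15, 95% interval -0.75 to 0.04) and did not pass. Klf10 was 2.25-fold higher with both than with E. coli (1.17 ± 0.19, adjusted p = 0.00016) and 1.68-fold higher than with IFN-γ (0.75 ± 0.19, adjusted p = 0.0084). With ACs of the IL-4 experiment Klf10 was at 179, 251 and 145 and with IL-4 at 197, 218 and 185, which overlapped (0.10 ± 0.22, adjusted p = 0.91). Replicate 3 of the IL-4 experiment rests on 27 and 36 reads of Klf10.

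Markers of eosinophils and of other cells also differed between the groups. Of the 10 eosinophil markers, Ear6 rose 2.83-fold and Il5ra fell (log2 -0.64 ± 0.16) with E. coli. With IFN-γ 4 fell, among them Siglecf (-0.99 ± 0.10), where 9.96% of all genes fell. With IL-4 Ear2 (2.12 ± 0.34) and Ear6 (0.91 ± 0.16) rose. With both stimuli Siglecf (-0.76 ± 0.10) and Ear2 (-3.38 ± 0.60) fell and Gata1 (0.62 ± 0.14) rose. The neutrophil genes S100a8 and S100a9 rose with E. coli (2.77 ± 0.22 and 4.05 ± 0.56), with IFN-γ (1.43 ± 0.22 and 2.52 ± 0.56) and with both stimuli (1.58 ± 0.22 and 3.28 ± 0.56). The paper reports a rise of S100a8 in its eosinophils with ACs. Ly6g rose with IFN-γ (2.16 ± 0.51) and with both (2.01 ± 0.51), and did not pass with E. coli (0.55 ± 0.51, adjusted p = 0.55). Mpo and Elane were at 0 in all libraries with E. coli, IFN-γ or both. Camp, Ltf and Ngp reached at most 6.11, 2.51 and 13.4 in any library. Of mast cell markers Cpa3 rose with IFN-γ (2.75 ± 0.70) and both (3.03 ± 0.70), at sums of 5.6 to 66.5 for the list. The B cell gene Cd79a (-1.61 ± 0.45) and the T cell genes Bcl11b (-2.25 ± 0.76) and Tcf7 (-1.08 ± 0.35) were lower with both than with E. coli. The part of these cells in the KLF values was not tested.

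Klf6, an activator known to promote inflammatory gene expression in macrophages, passed against ACs with no stimulus and was higher with both stimuli than with E. coli alone. Its normalized counts were 2571, 2621 and 2757 with ACs, 2052, 2186 and 2133 with E. coli, 2779, 2484 and 3271 with IFN-γ and 3477, 3112 and 3845 with both. The E. coli libraries lay below and those with both stimuli above all ACs libraries, and IFN-γ overlapped ACs. Against ACs none of these differences passed, with -0.32 ± 0.11 for E. coli (adjusted p = 0.071), 0.09 ± 0.11 for IFN-γ (adjusted p = 0.59) and 0.39 ± 0.11 for both, whose adjusted p of 0.011 was under the limit and whose change, 1.31-fold, was under 1.5-fold. With both stimuli Klf6 was 1.63-fold higher than with E. coli (0.71 ± 0.11, adjusted p = 0.00014). Klf6 was at 2524, 2039 and 1796 with ACs of the IL-4 experiment and at 2165, 2096 and 1162 with IL-4, with overlap (-0.27 ± 0.23, adjusted p = 0.74), and replicate 3 was the lowest of each group.

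Klf7, an activator studied in neurons and lymphoid cells, was lowest with IFN-γ alone. It was at 1589.8, 1629 and 1663 with ACs, 2127, 2113 and 1802 with E. coli, 1184, 1249 and 1521 with IFN-γ and 1930.1, 2509 and 1806 with both stimuli. The IFN-γ libraries lay below and the libraries with E. coli above those with ACs. Against ACs it did not pass with E. coli (0.30 ± 0.13, adjusted p = 0.14), IFN-γ (-0.31 ± 0.13, adjusted p = 0.084) or both (0.34 ± 0.13, adjusted p = 0.045, 1.27-fold). With both stimuli it was 1.57-fold higher than with IFN-γ (0.65 ± 0.13, adjusted p = 0.0014), a call that ended without IFN-γ replicate 1 (0.58) or IFN-γ + E. coli replicate 2 (0.51), where the change was under 1.5-fold. With ACs of the IL-4 experiment it ranged from 1276 to 1769 and with IL-4 from 1563 to 1994 (0.21 ± 0.16, adjusted p = 0.72). Gm26649 overlaps Klf7 on the other strand, with a mean normalized count of 17.5.

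Klf13 and Klf3 did not pass in any comparison in limma with all libraries. Klf13 ranged from 2542 to 2834 with ACs, 3315 to 3754 with E. coli, 2719.9 to 3234 with IFN-γ and 2565 to 4506 with both, the widest spread of the member in any group. The E. coli libraries lay above all ACs libraries, with a difference of 0.38 ± 0.15 (adjusted p = 0.1), and the differences with IFN-γ (0.18 ± 0.15, adjusted p = 0.4) and both (0.35 ± 0.15, adjusted p = 0.071) did not pass either. Klf13 ranged from 2986 to 4157 with ACs of the IL-4 experiment and from 2986 to 3581 with IL-4 (-0.02 ± 0.15, adjusted p = 0.98, 95% interval -0.36 to 0.32). Ccl5, known in T cells as a Klf13 target and named after its values were seen, had group means of 2117 with ACs and of 4283, 6352 and 6609 with E. coli, IFN-γ and both. Klf3 ranged from 863 to 913 with ACs, 753 to 863 with E. coli, 629 to 882 with IFN-γ and 604 to 746 with both. Its difference was -0.13 ± 0.13 with E. coli (adjusted p = 0.59) and -0.32 ± 0.13 with IFN-γ (adjusted p = 0.083). With both it was -0.39 ± 0.13 (adjusted p = 0.025), 1.31-fold lower and under the 1.5-fold limit. Klf3 ranged from 466 to 772 with ACs of the IL-4 experiment and from 529 to 622 with IL-4, a difference of -0.00 ± 0.19 (95% interval -0.42 to 0.42). The highest group mean was 1.31 times the lowest for Klf13, 1.51 times for Klf3, 1.58 times for Klf7 and 1.92 times for Klf6. For Klf3 and Klf6 these means came from different experiments, so stimulus and experiment cannot be told apart in the ratio.

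The E. coli effect was also measured in the presence of IFN-γ, and both stimuli were compared with E. coli alone. Where IFN-γ was present, adding E. coli raised 2 of the 7 (Klf7 and Klf10) and lowered none past the threshold, while 14.6% of all genes passed, 5.96% higher and 8.61% lower. The remaining 5 differed by -0.43 to 0.37, with Klf2 at 0.37 ± 0.15 (adjusted p = 0.089) and Klf4 at -0.43 ± 0.20 (adjusted p = 0.15). Against E. coli alone, 3 of the 7 were higher with both stimuli (Klf4, Klf6 and Klf10), while 19.4% of all genes passed, 9.79% higher and 9.57% lower. Klf2 then differed by -0.20 ± 0.15 (adjusted p = 0.37). The libraries of the compared groups were apart for 2 and 4 members in these comparisons, and for 29.6% and 39.3% of all genes.

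The interaction, the E. coli effect with IFN-γ minus that without, was tested as a contrast of the 4 group means. In the group with both stimuli IFN-γ came before E. coli, so their order cannot be told apart from their combination. It passed for 4 of the 7, all higher, while 7.44% of all genes passed, 3.16% higher and 4.28% lower. The median over the members was 0.61 and over all genes -0.03. For Klf2 it was 1.81 ± 0.21 (adjusted p = 2.5e-05). On the log2 scale the single changes of Klf2 sum to -3.45, which would give a normalized count of 116, and the libraries with both stimuli had a mean of 417. For Klf10 the interaction was 2.27 ± 0.27 (adjusted p = 2.6e-05), where the single changes sum to -2.63 and a count of 25.8, and the mean with both was 129. For Klf4 it was 1.09 ± 0.29 and for Klf6 0.61 ± 0.16 (adjusted p = 0.024 for each). The single changes of Klf4 sum to -1.17 and those of Klf6 to -0.23, and with both stimuli they were at -0.08 and 0.39.

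The calls of Klf2 and Klf10 held with any library left out, and those of Klf4 and Klf6 did not. Klf4 was over the limit without ACs replicate 1, 2 or 3 (adjusted p of 0.057, 0.051 and 0.054), without E. coli replicate 2 (0.062) and with all 18 libraries fitted together (0.088), and over the 22 settings run it ranged from 0.0052 to 0.088. Klf6 lost its call without ACs replicate 2 or 3 (0.052 and 0.07), E. coli replicate 1 or 3 (0.072 and 0.054) or IFN-γ replicate 2 (0.075), and without IFN-γ + E. coli replicate 3 by its size alone (0.54 on the log2 scale). It also lost it without the filter on low values (0.062) and with all 18 libraries (0.18), in a range of 0.0025 to 0.18. For the other members the interaction was 0.06 ± 0.19 (Klf3), 0.35 ± 0.18 (Klf7) and -0.22 ± 0.21 (Klf13), with adjusted p of 0.9, 0.27 and 0.6. Of the 12 macrophage markers, 5 had an interaction past the threshold and all 5 were lower, as were 4.28% of all genes. Of the neutrophil markers 2 of 3 tested were lower. The sum of that list was 50.6 to 66.6 with ACs and 317 to 458 with E. coli, where S100a8 alone was at 254 to 383. The part of either list in the KLF values was not tested.

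**Figure D4:**
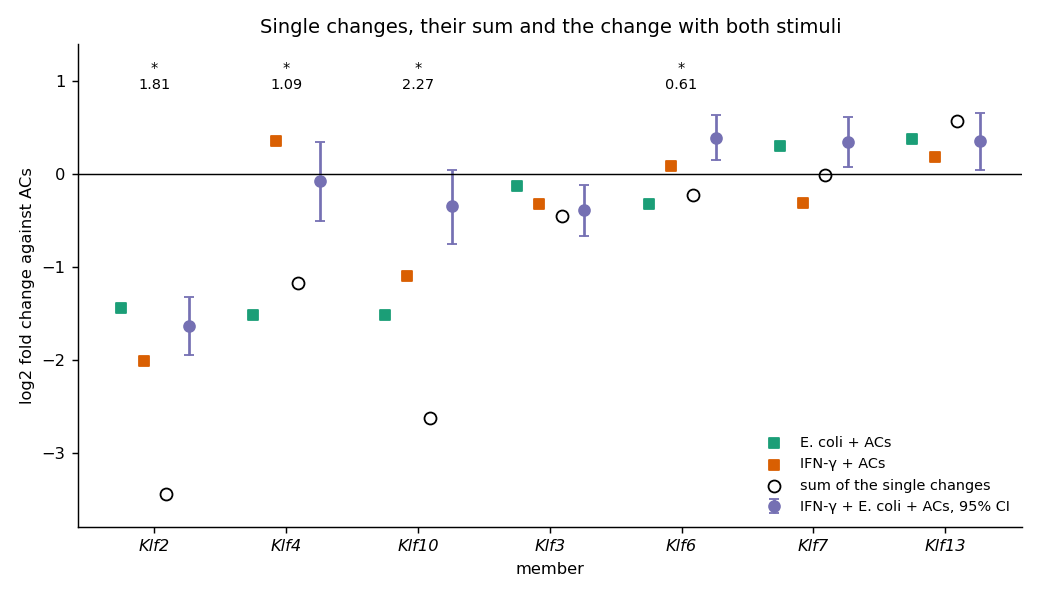
Log2 fold change against ACs of each member with E. coli and IFN-γ (squares), the sum of these changes (open circles) and the change with IFN-γ + E. coli (filled circles, bars for its 95% confidence interval); the number under a star is the interaction where it passed the threshold. For Klf2 and Klf10 the measured change lies at -1.64 and -0.35 against sums of -3.45 and -2.63.

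The response to IL-4 was set against the response to IFN-γ + E. coli, each measured from its own ACs libraries, in a fit of all 18 libraries. The difference passed for 2 of the 7, both higher with IL-4, while 20.4% of all genes passed, 9.67% higher and 10.8% lower. For Klf4 it was 1.43 ± 0.36 (adjusted p = 0.007) and for Klf2 0.98 ± 0.27 (adjusted p = 0.014). Klf4 had a difference of 1.35 with IL-4 and of -0.08 with IFN-γ + E. coli, and Klf2 of -0.66 and -1.64. For Klf6 the difference was -0.66 ± 0.25 (adjusted p = 0.068), for Klf13 -0.37 ± 0.23, for Klf7 -0.13 ± 0.21, for Klf3 0.39 ± 0.22 and for Klf10 0.45 ± 0.28 (adjusted p of 0.26, 0.69, 0.23 and 0.27 for these 4). Klf6 passed without IL-4 replicate 1 (-0.81) or 2 (-0.79) or ACs replicate 3 (-0.77) of the IL-4 experiment, and in DESeq2 (-0.63, adjusted p = 0.044), with an adjusted p from 0.01 to 0.18 over 28 settings. Klf3 passed without that ACs replicate 3 (0.59) and without replicate 3 of both groups (0.66).

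The other KLF genes and the SP factors bind like sequences and were followed in the same comparisons. Of the other 10 KLF genes 4 passed the filter on low values (Klf5, Klf9, Klf11 and Klf16), and Klf14 was at 0 in all 18 libraries. With E. coli and with IL-4 none of the 4 passed in limma, and with both stimuli 1 did, Klf16 (log2 1.20 ± 0.38, adjusted p = 0.019). With IFN-γ Klf5 and Klf11 passed. Over all genes tested 10.3% passed with E. coli, 1.09% with IL-4, 31.9% with both and 21.4% with IFN-γ. Klf5 was at 162 to 184 with ACs and fell with IFN-γ to 106 to 121.5 (log2 -0.62 ± 0.19, adjusted p = 0.021), with no overlap. Klf11, which like Klf10 belongs to the TGF-β-inducible early genes, was at 89.5 to 137 with ACs and fell with IFN-γ to 53.4 to 91 (-0.68 ± 0.22, adjusted p = 0.027), with overlap. Both were higher with IFN-γ + E. coli than with IFN-γ alone (0.71 ± 0.19 and 0.92 ± 0.22, adjusted p of 0.013 and 0.0058), a comparison in which 14.6% of all genes passed. Klf11 had an interaction of 1.02 ± 0.31 at an adjusted p of 0.05, at the limit and not called. Klf9 was at 754 to 2696 over all libraries and passed in no comparison, with log2 differences of -0.29 to 0.58.

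Of the 9 SP genes, Sp1 to Sp4 passed the filter. Sp2 was at 75.9 to 111 with ACs and rose with both stimuli to 154 to 185 (0.78 ± 0.21, adjusted p = 0.0065), with no overlap. With IFN-γ alone Sp2 was at 68.8 to 119. Sp3 was higher with both than with IFN-γ (0.59 ± 0.18, adjusted p = 0.024) and Sp4 higher with both than with E. coli (0.94 ± 0.33, adjusted p = 0.043). Sp1, the broadly expressed factor of the family, was at 520 to 622 with ACs and 689 to 698 with both, and passed in no comparison. With IL-4 none of these 8 other KLF and SP genes tested passed in limma, with unadjusted p of 0.096 to 0.94.

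Of 8 genes of the ERK5-MEF2 pathway and FOXO1, which induce Klf2 and Klf4, 7 or 8 were tested in each comparison. The shares of all genes that passed the adjusted threshold were 10.3% with E. coli, 21.4% with IFN-γ, 31.9% with both and 1.09% with IL-4. The share at an unadjusted p under 0.05 was not counted. With E. coli 0 passed in limma, 2 having an unadjusted p under 0.05, of which Mef2d (log2 0.50 ± 0.15, 1.41-fold, adjusted p = 0.028) was under the fold limit only. With IFN-γ 1 rose, Mef2d (log2 0.82 ± 0.15, adjusted p = 0.00029), a factor that binds the MEF2 consensus. Mef2d was at 204 to 248.8 with ACs and at 334 to 447 with IFN-γ, where Klf2 was lowest. With both stimuli Mef2d rose (0.71 ± 0.15, adjusted p = 0.00073) and the kinases Map3k3 (-1.15 ± 0.42, adjusted p = 0.035) and Map2k5, which encodes MEK5 (-0.98 ± 0.34, adjusted p = 0.028), fell. Map3k3 spread from 181 to 889 within the libraries with both stimuli. Mef2a was lower with IL-4 than with both in the difference of the responses (-1.16 ± 0.28, adjusted p = 0.0056). With IL-4 0 of 8 passed in limma, where Mef2a (-0.70, unadjusted p = 0.028) and Foxo1 (-0.46, unadjusted p = 0.022) were the 2 under 0.05.

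Of 12 KLF cofactors and ubiquitin ligases, 11 did not pass with E. coli, 12 with IFN-γ, 10 with both and 12 with IL-4, and at an unadjusted p under 0.05 there were 4, 2, 5 and 0. Of all genes tested 10.3%, 21.4%, 31.9% and 1.09% passed the adjusted threshold, in the same order. The share of all genes at an unadjusted p under 0.05 was not counted. Wwp1, a ligase of KLF proteins, was at 77 to 108 with ACs and fell to 53.7 to 71.1 with E. coli (-0.64 ± 0.20, adjusted p = 0.043) and to 58.4 to 63.5 with both (-0.64 ± 0.20, adjusted p = 0.018). Kat2b, the acetyltransferase PCAF, was at 140.3 to 172 with ACs and rose with both to 231 to 389 (0.90 ± 0.18, adjusted p = 0.00046). The corepressor gene Sin3b had a negative interaction (-0.71 ± 0.19, adjusted p = 0.03).

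Of 14 genes known as KLF targets in other cells, 13 were tested in the Type 1 and 12 in the IL-4 experiment. With E. coli 3 rose and 4 fell, with IFN-γ 6 rose and 3 fell, with both 3 rose and 3 fell, and with IL-4 3 rose and 1 fell. Beside them 10.3%, 21.4%, 31.9% and 1.09% of all genes passed, in the same order. Mrc1, the mannose receptor of alternatively activated macrophages, was at 94.6 to 134 with ACs and fell to 7.36 to 14.9 with E. coli, 5.28 to 32.1 with IFN-γ and 2.85 to 13.8 with both (log2 -3.25 ± 0.55, -2.82 ± 0.55 and -3.67 ± 0.55, adjusted p of 0.00041, 0.00071 and 3e-05). It rose with IL-4 from 38.2 to 53.6 up to 144 to 186 (1.81 ± 0.23, adjusted p = 0.0047). Klf4 had a difference of 0.35 ± 0.20 with IFN-γ, where Mrc1 fell. Thbd, the thrombomodulin gene that Klf2 and Klf4 induce in endothelium, fell with E. coli (-1.43 ± 0.23, adjusted p = 0.00028), both stimuli (-2.27 ± 0.23, adjusted p = 3.1e-07) and IL-4 (-1.82 ± 0.29, adjusted p = 0.015), and was at -0.08 ± 0.23 with IFN-γ, where Klf2 was lowest. Smad7, the inhibitory Smad that Klf10 represses, was at 14.6 to 23.5 with ACs and rose with E. coli (1.29 ± 0.26), IFN-γ (1.17 ± 0.26) and both (2.20 ± 0.26, adjusted p of 0.0018, 0.002 and 1.5e-06). Chil3, a chitinase-like protein of type 2 responses, rose with IFN-γ (1.03 ± 0.13, adjusted p = 6.9e-06) and IL-4 (2.57 ± 0.22, adjusted p = 0.00043). The median log2 change over the tested targets was -0.09 with E. coli, 0.02 with IFN-γ, 0.16 with both and 0.26 with IL-4.

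The genes whose pattern was most like that of each member were found among 6906 genes with a mean of at least 50, by Pearson r of the log2 values over 18 libraries, each experiment centred on its own ACs libraries. These r values describe 18 libraries that fall into 6 groups and share their ACs libraries, and they carry no test. For Klf2 the nearest were Btg2 (0.96), an antiproliferative immediate early gene, Egr1 (0.94), a zinc finger immediate early gene, and Man2b1 (0.92). For Klf4 they were Slco4c1 (0.91), Timd4 (0.86), which is among the macrophage markers, and Ccl12 (0.83). For Klf10 they were Fanca (0.94), Tm6sf1 (0.92) and Gm15675 (0.89), and for Klf6 Usp32 (0.90), Dlg1 (0.89) and Gpcpd1 (0.88). For Klf7 they were Prkcb (0.88), Csf1 (0.86) and Aqp9 (0.85), for Klf13 Gnai2 (0.88), Kdm6b (0.85) and Stk40 (0.82), and for Klf3 Exoc4 (0.87), Cd48 (0.84) and Fer (0.84). No member was among the 3 nearest of another.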

How the data were processed

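The authors deposited one table for the 18 CEL-Seq2 libraries, whose signal is a normalized count, the reads of a gene divided by a DESeq2 size factor of the library. The methods describe TopHat2 with HTSeq on GRCm38 and, elsewhere, fastp with STAR, and which made the table is not given in the sources used here. The submitters' processing notes name FastQC 0.11.5, cutadapt 1.10, TopHat2 2.1.0, Bowtie2 2.2.6, HTSeq 0.6.1 and DESeq2 1.26.0. Whether the counting used strand is not given.

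Dividing by the value of 1 read, estimated in each library, gave whole reads for 100.0% of values in every library, within 0.011 on the scale of the normalized count. The depths were hence 779421 to 7782072 reads, which limit the precision of low values. Of 54446 identifiers 54409 matched a symbol in GENCODE. The unit called for limma 3.58.1 (R 4.3.3) with a variance trend on log2(normalized count + 1), for genes with a mean of at least 10 over the libraries of the fit, so that fold changes of low genes are understated. The Type 1 experiment (4 groups), the IL-4 experiment (2 groups) and, for the difference between their responses, all libraries were each fitted as 1 model. A call needs a Benjamini-Hochberg adjusted p under 0.05 over all genes tested and a change of at least 1.5-fold, and ± after a log2 value is its standard error. edgeR 4.0.16 (quasi-likelihood) and DESeq2 1.42.0 were run on the recovered reads as alternatives, beside other pseudocounts, filters and scalings, a replicate block and each library left out. The smallest p an exact permutation test of 3 against 3 libraries can give is 0.1, so none is reported. The limma fits were tested on simulated counts with the same dispersion for all genes and 4-fold changes in genes with a mean of at least 50. Smaller changes were not simulated.

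The members and gene lists (other KLF, SP, ERK5-MEF2-FOXO1, cofactors, targets, and markers of eosinophils, macrophages, thymocytes, B cells, mast cells and neutrophils) were chosen with earlier results of these data known. Named are all members, KLF and SP genes with a mean of at least 50, and up to 4 genes of each other list with the largest called change in any comparison. Others were named after their values were seen.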

Additional observations from a re-analysis of the deposited data

Results flagged for a closer look

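For 4 of the 7 Krüppel-like factors the response to E. coli differed with and without IFN-γ, by the interaction contrast of the Type 1 experiment in limma, where 7.44% of all genes passed, 3.16% higher and 4.28% lower. The log2 difference of the E. coli responses was 1.81 for Klf2, 2.27 for Klf10, 1.09 for Klf4 and 0.61 for Klf6. Klf2 and Klf10 kept an adjusted p of at most 0.00042 and 0.00021 over the 22 settings run, and Klf4 and Klf6 reached 0.088 and 0.18. Without IFN-γ, all 3 E. coli libraries lay below all ACs libraries for each of the 4, and for 38.3% of all genes the groups did not overlap. The fall passed for Klf2, Klf4 and Klf10 and not for Klf6 (-0.32, adjusted p = 0.071). With IFN-γ, the libraries that also had E. coli overlapped those without it for Klf2, Klf4 and Klf6 and lay above them for Klf10, while the groups did not overlap for 29.6% of all genes.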

How the results depend on the processing

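The counts of members past the threshold stayed at 3 with E. coli and 2 with IFN-γ under all settings. With IL-4 the count was 0 in limma and 1, Klf4, without the filter on low values, in edgeR, in DESeq2 and with all 18 libraries in 1 fit, 0 to 1 with a library left out, the 1 without ACs replicate 3, and 2 without replicate 3 of both groups. With IFN-γ + E. coli it went from 1 to 4 with no fold threshold. With a library left out it was 1 to 2 for IFN-γ + E. coli against IFN-γ, 2 to 4 for the interaction and 2 to 4 for the IL-4 minus the IFN-γ + E. coli response, and 2 for the interaction with all 18 libraries. Over the members' own values, 488 of 511 under other settings and 636 of 672 with a library left out stayed on their side of the threshold with the same sign.

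Signs turned only in differences that were not called. With IL-4 Klf3 was at 0.04 in edgeR, 0.02 in DESeq2 and 0.27 without replicate 3 of both groups, and Klf10 at -0.03 there. For IFN-γ + E. coli against E. coli, Klf7 was at -0.07 with upper quartile scaling and Klf13 at 0.01 in edgeR and 0.02 in DESeq2, and for the IL-4 minus the IFN-γ + E. coli response Klf7 was at 0.06 without replicate 3 of both groups. With a library left out, Klf6 ranged from -0.01 to 0.19 with IFN-γ and Klf4 from -0.17 to 0.06 with both stimuli. With IL-4 Klf3 ranged from -0.17 to 0.20, Klf6 from -0.43 to 0.02, Klf10 from -0.09 to 0.31 and Klf13 from -0.10 to 0.14. Against IFN-γ, both stimuli gave -0.16 to 0.08 for Klf3 and -0.04 to 0.37 for Klf13, and against E. coli -0.11 to 0.13 for Klf7 and -0.24 to 0.17 for Klf13. The interaction of Klf3 ranged from -0.03 to 0.21, and the IL-4 minus IFN-γ + E. coli response of Klf7 from -0.29 to 0.01. The cause was not tested.

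Same-numbered replicates did not deviate together, with correlations of -0.09 to 0.09 over 18 pairs and 0.00 to 0.02 over 3 pairs. Deviations from means of 3 libraries cannot exclude a shared mouse or preparation, and replicate 3 was shallow in both groups of the IL-4 experiment. With the replicate block 45 genes were higher and 29 lower with IL-4, against 79 and 37 without it, and Klf6 was called in the IL-4 minus IFN-γ + E. coli response (-0.66, adjusted p = 0.01), which made 3 members in place of 2. With IL-4, limma called 125 higher and 83 lower without the filter and 116 and 105 with all 18 libraries, edgeR 127 and 85, DESeq2 128 and 81, and limma 345 and 311 without replicate 3 of both groups. It called fewer without IL-4 replicate 1 (31 and 16) or 2 (39 and 18) and without ACs replicate 1 (42 and 20) or 2 (45 and 16). The interaction had 321 higher and 435 lower, and 214 and 281 with all 18 libraries, 161 and 239 without E. coli replicate 1, 178 and 261 without ACs replicate 3 and 214 and 272 without IFN-γ replicate 2. Upper quartile scaling moved the median of all genes to -0.18 with both stimuli and gave 1155 higher and 2200 lower calls there against 1494 and 1746, and it gave 769 and 1352 against 995 and 973 for IFN-γ + E. coli against E. coli (median -0.15) and 1268 and 870 against 1007 and 1121 for the IL-4 minus IFN-γ + E. coli response (median 0.17). In replicate 3 of the IL-4 experiment depth limits Klf4 and Klf10.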
